A study of Mus musculus with 10 samples.

Results

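The genes of the hemidesmosome, its laminin-332 ligand and the other main keratinocyte receptors for it were followed in mouse keratinocytes with and without RhoA. The set was chosen by gene symbol: it holds every probe set that the platform annotation gives to exactly 1 of Itga2, Itga3, Itga6, Itgb1, Itgb4, Lama3, Lamb3, Col17a1 and Dst. This gave 9 of the 18193 named genes, read by 21 of the 45037 probe sets of the table. Itgb1 had 6 probe sets, Dst had 4, Itga3 had 3, Itga6 and Lama3 had 2 each, and the other genes had 1.

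Hemidesmosomes rivet basal keratinocytes to the basement membrane. The integrin α6β4 (Itga6, Itgb4) and the transmembrane collagen XVII (Col17a1) bind laminin-332 outside the cell, while the plakin BPAG1, a product of Dst, links the complex to keratin filaments inside it. The integrins α3β1 (Itga3, Itgb1) and α2β1 (Itga2, Itgb1) connect to actin in focal contacts instead, with α3β1 binding laminin-332 and α2β1 mainly collagen. RhoA is a small GTPase that controls actin assembly and contractility at such contacts.

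RNA was taken from epidermal keratinocytes directly after isolation (fresh cells) or after primary culture (cultured cells). The RhoA-null cells, called KO here, had the genotype RhoA fl/fl K5 cre. The controls, named Wildtype in the titles, were RhoA fl/+ K5 cre, so every sample carried the same Cre and at least 1 floxed allele, and the controls were not free of a recombinable allele. The keratin 5 (K5) promoter is active in basal keratinocytes, and ages and animals were not named. Of the 10 arrays, 4 held fresh cells, 2 of each genotype, and 6 held cultured cells, 3 of each genotype. Samples are called biological replicates without a statement on separate animals or cultures. The p-values therefore cover only the spread among these samples, which may be technical in part.

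Each value is the authors' linear signal of 1 probe set on 1 array. The array medians were 64.1 to 64.8 in fresh cells and 7.75 to 8 in cultured cells, so signals were compared only within a condition, and fresh and cultured cells only by percentile within each array. The basal keratinocyte markers Krt5, Krt14, Krt15, Trp63 and Cdh3 were all above the array median in fresh cells, and all but Krt15 were so in culture. The fresh KO replicate 2 stood apart: its 9 hair follicle markers summed to 33893, against 566 to 1379 on the other fresh arrays. Its 5 melanocyte markers summed to 4350, against 892 on fresh KO replicate 1 and 439 to 581 in fresh controls. The melanocyte sum was thus higher on both fresh KO arrays than in the controls. In culture it was 217 to 475 in controls and 418 to 1315 in KO, which overlapped. The Langerhans and myeloid sum of 5 markers was 4797 to 10191 in fresh KO and 12152 to 15325 in fresh controls. In culture, 7 suprabasal markers (among them Krt1 and Krt10) summed to 1712 to 1794 in controls and 4923 to 8643 in KO. The cultured sum of the 5 basal markers overlapped between genotypes, from 109310 to 131693, and the fresh sum likewise, from 72825 to 75069. In fresh KO, Krt15, Trp63 and Cdh3 were at -0.22, -0.13 and -0.11 log2, and Krt5 and Krt14 at 0.05 and 0.17. In cultured KO, Trp63 was at 0.13 and Krt5, Krt14 and Cdh3 at 0.02 to 0.05. None of these passed the adjusted test. The 7 fibroblast markers summed to 1775 to 2007 in fresh controls and 2195 to 2570 in fresh KO, with Col1a1, Lum and Pdgfra below the fresh array medians throughout and Col3a1 3.97-fold higher in fresh KO (limma, adjusted p = 0.153). In culture the fibroblast sum was 68.9 to 109 in controls and 125 to 199 in KO, with Col1a1, Col1a2, Col3a1, Dcn and Lum below the array medians throughout. The largest part of the fibroblast sum was Vim, at -0.12 log2 in fresh KO and 1.43 in cultured KO. Dcn read 1012 on fresh KO replicate 2 and 63 to 137 on the other fresh arrays. The 3 Schwann cell markers measured summed to 1431 to 1472 in fresh controls and 1079 to 1176 in fresh KO, and to 1879 to 2326 in cultured controls and 1145 to 1346 in cultured KO. Most of that sum was Mbp, at -0.41 log2 in fresh and -0.77 in cultured KO, while Cdh19 was below the array medians in both conditions and Sox10 in culture. The suprabasal sum overlapped in fresh cells, between 61994 and 66661, although Krt1 differed by 0.59 (adjusted p = 0.242) and Lor by -1.06 (adjusted p = 0.317). The part of these markers in the results was not tested. In such bulk RNA, fewer cells of a type and less RNA per cell cannot be told apart.

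Rhoa itself was read by a probe set at 11249, 9879 and 9240.2 in cultured controls and at 8209, 7839 and 7628 in cultured KO. In fresh cells the order was turned, with 3526 and 4059 in controls and 4398 and 4296 in KO. The position of these probes within the floxed gene was not known here, so they check neither the deletion nor the labels.

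Across the set, KO signals lay above control signals in culture and below them in fresh cells for most genes, by modest amounts. With the brightest probe set standing for each gene, all 9 genes were higher in cultured KO, with a median log2 difference of 0.24, and 7 of the 8 genes tested were lower in fresh KO, with a median of -0.16. When all probe sets of a gene were averaged, Itgb1 turned to -0.046 in culture and Itga3 to 0.0064 in fresh cells, and the cultured differences of Dst and Lama3 came to 0.048 and 0.19. Over all probe sets tested the medians were -0.01 and -0.0003. No member passed limma's test within a condition after Benjamini-Hochberg adjustment, 0 of 20 tested in culture and 0 of 16 tested in fresh cells. Among all probe sets, 62 of 22682 (0.273%) passed in culture and 0 of 22893 (0%) in fresh cells. Counting probe sets, 16 of the 20 tested were higher and 4 lower in cultured KO, against 47.2% and 52.8% of all, and in fresh KO 5 of 16 were higher and 11 lower, against 49.9% and 50.1%. Among the 16, Itga6 1422445_at (0.014) and Lama3 1444860_at (0.007) read close to the cultured array medians. Among the 4, Itgb1 1426919_at and 1426920_x_at were dim, at 17.7 to 28.2. At an unadjusted p under 0.05, 6 of the 20 members were higher and 0 lower in cultured KO, against 7.16% and 8.49% of all probe sets tested. In fresh cells 5 of the 16 were lower and 0 higher, against 6.89% (1577 probe sets) and 6.01% (1376).

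**Figure D1:**
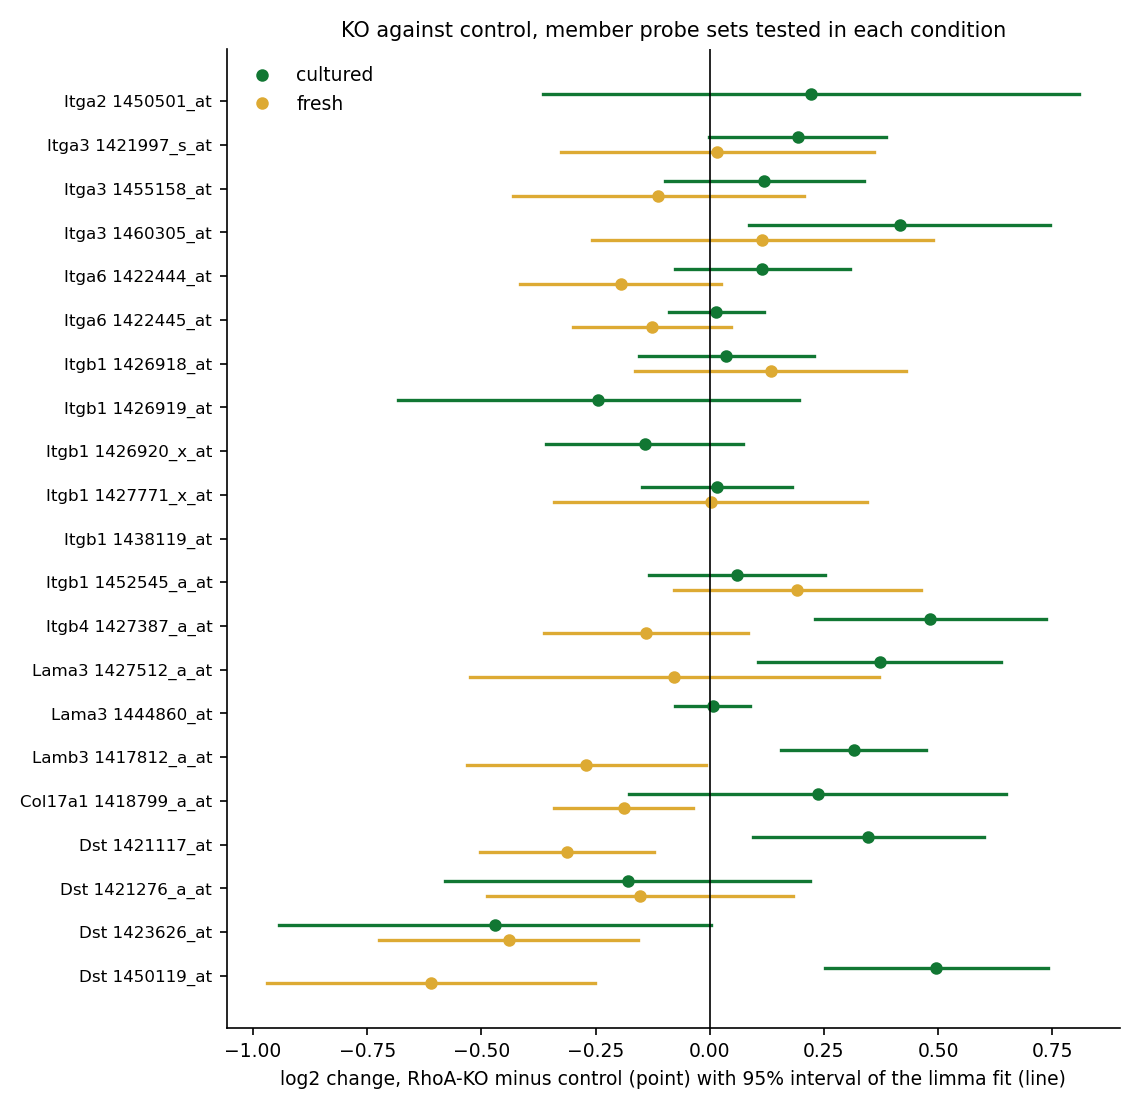
Log2 difference between KO and control (x axis) for each member probe set (y axis), in cultured and in fresh cells, with limma's 95% interval as the bar. Most points lie right of 0 in culture and left of 0 in fresh cells, with median gene values of 0.24 and -0.16, and the Dst probe sets 1421117_at and 1450119_at lie on opposite sides of 0.

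The ordering of single arrays showed the same split. In culture every KO array exceeded every control array for 7 of 20 probe sets, namely Dst 1421117_at and 1450119_at, 2 for Itga3, and those of Itgb4, Lamb3 and Lama3, against 10.1% of all probe sets. The reverse held for 2 dim Itgb1 probe sets, against 12.2% of all. In fresh cells every KO array lay below every control array for 9 of 16, covering Itga6, Itgb4, Lamb3, Col17a1 and all 4 of Dst, against 23.5% of all, and above for 2 of Itgb1, against 23.5%. Groups of 2 or 3 arrays separate often, as these background shares show. Both patterns together, above in culture and below in fresh cells without overlap, were met by 4 of the 16 probe sets tested in both conditions (25.0%), from Itgb4, Lamb3 and Dst, against 2.06% (386 of 18773) over the table.

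**Figure D2:**
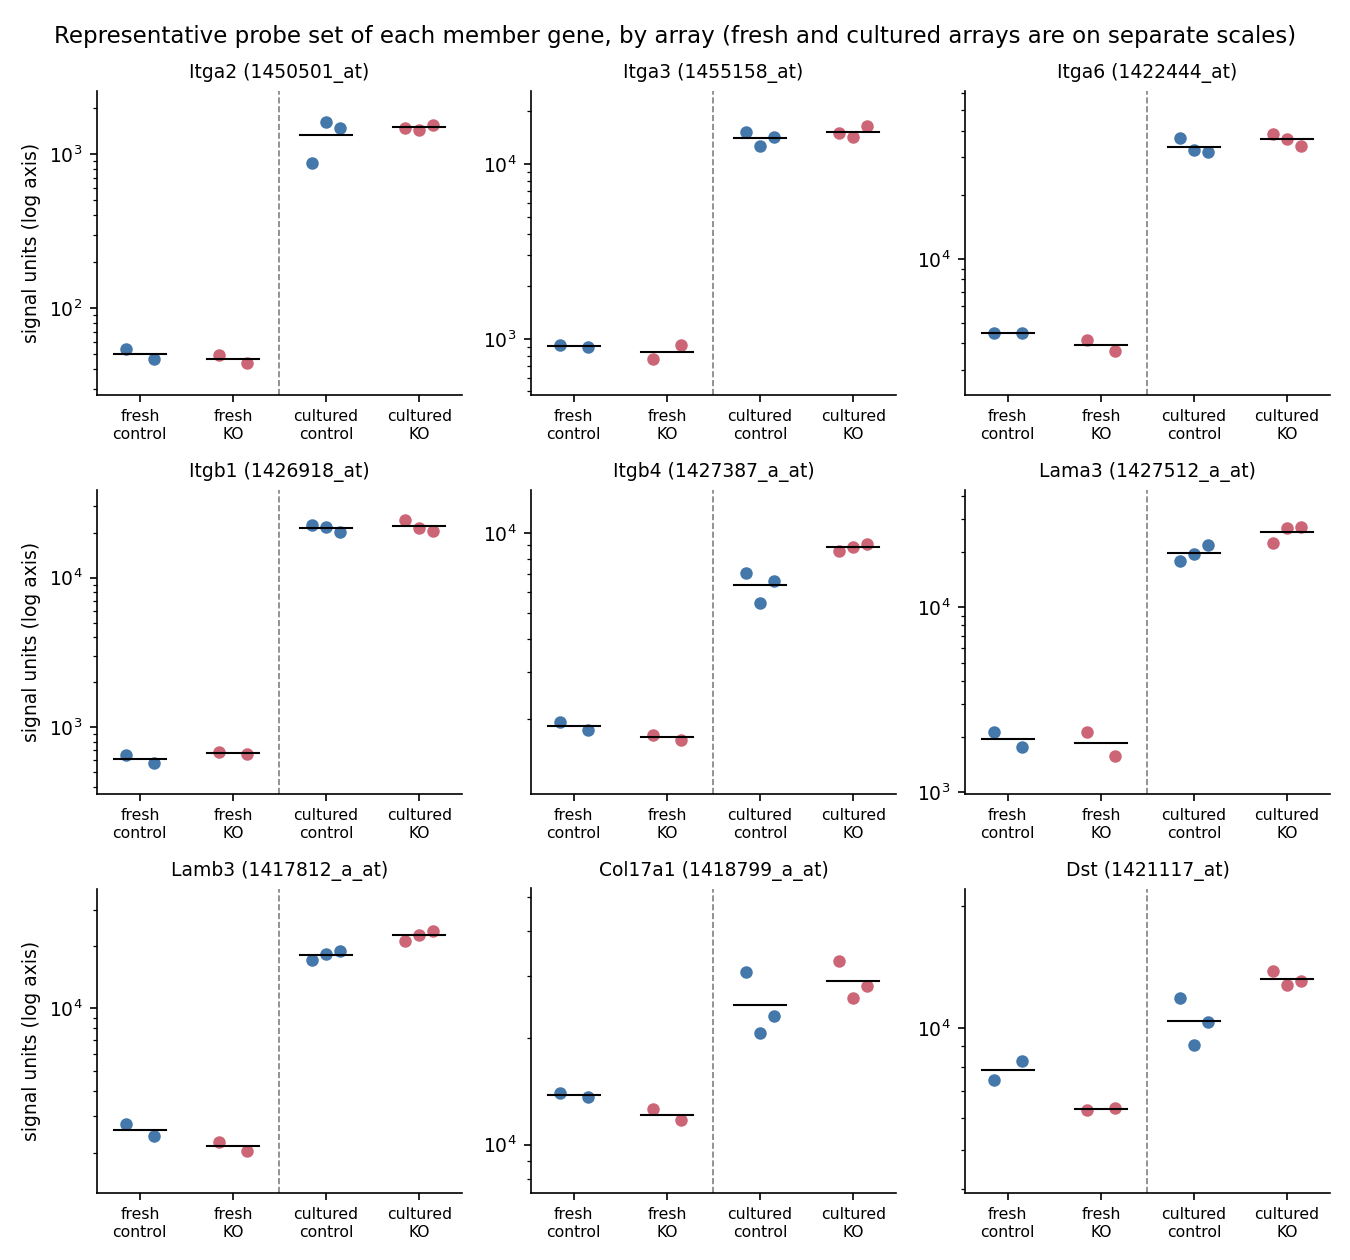
Signal on each array (y axis, log scale) of the brightest probe set of each of the 9 genes, by group, with 1 point per array and a line at the group mean. For Itgb4, Lamb3 and Dst the cultured KO points lie above the cultured controls and the fresh KO points below the fresh controls.

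Laminin-332 is the ligand of the complex, and Lama3 and Lamb3 encode chains of it. Lamb3, which encodes the β3 chain, read 17054, 18298 and 18975 in cultured controls and 21100.2, 22727 and 23788 in cultured KO. All 3 KO arrays were thus above all controls. In fresh cells Lamb3 read 2756 and 2421 in controls and 2241 and 2047 in KO, with both KO arrays lowest. The log2 difference was 0.32 (SE 0.06, 95% interval 0.16 to 0.47), or 1.24-fold, in culture (limma, adjusted p = 0.129). In fresh cells it was -0.27 (SE 0.10, interval -0.53 to -0.01, adjusted p = 0.374), and without the fresh KO replicate 2 it was -0.20.

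Lama3, which encodes the α3 chain that carries the integrin-binding domain, read 17735, 19406 and 21821 in cultured controls and 22354, 26884 and 27111 in cultured KO. The KO arrays again lay above the controls, by 1.29-fold or 0.37 log2 (SE 0.11, adjusted p = 0.208). Fresh signals were 2120.1 and 1755 in controls and 2129 and 1569 in KO, a spread within each genotype that exceeded the log2 difference of -0.08 (SE 0.18, adjusted p = 0.879). That fresh difference turned to 0.14 without the fresh KO replicate 2. A second Lama3 probe set, 1444860_at, stayed between 8.46 and 8.71 on the cultured arrays, close to their medians.

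The promoters of Lamb3 are shown because its signal parted between genotypes in both conditions. RefSeq (GRCm38.p6) gave promoter windows, from 250 bases before to 50 after a start, for 6 of the 9 genes, 9 windows in all, and none for Itga6, Itgb4 or Lama3. Lamb3 had 2 starts, at chr1:193301744-193302043 and chr1:193301993-193302292, both on the plus strand and 249 bases apart, so that the windows overlap. Capitals mark matches on either strand to GGGCGG (a GC box), GGAATG (the core bound by TEAD factors) and TGANTCA (the AP-1 site).
Lamb3 start 1: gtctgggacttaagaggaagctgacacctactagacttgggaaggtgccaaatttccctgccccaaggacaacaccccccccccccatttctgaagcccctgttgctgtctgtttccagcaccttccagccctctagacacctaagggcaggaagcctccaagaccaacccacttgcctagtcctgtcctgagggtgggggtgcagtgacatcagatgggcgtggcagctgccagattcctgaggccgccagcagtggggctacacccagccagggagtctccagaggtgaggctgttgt
Lamb3 start 2: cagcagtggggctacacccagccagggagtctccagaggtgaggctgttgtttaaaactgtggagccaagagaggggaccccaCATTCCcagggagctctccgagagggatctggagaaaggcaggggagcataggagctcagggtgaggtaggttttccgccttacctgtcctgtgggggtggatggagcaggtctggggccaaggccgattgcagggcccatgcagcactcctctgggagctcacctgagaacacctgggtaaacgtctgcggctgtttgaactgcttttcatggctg
The GC content of the first window was 59.3%. The only match was the TEAD letters in the second window, written there as the reverse complement. Of all 32851 windows of this length, 14.7% held the TEAD letters, 35.7% a GC box and 7.81% an AP-1 site. Among the 9 member windows, 2 held the TEAD letters (the second of Lamb3 and that of Itgb1), 5 a GC box and 1, of Itga3, an AP-1 site. A match is a description of letters only.

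Integrin α6β4 is the laminin receptor of the hemidesmosome, and Itgb4 encodes the β4 chain, whose long cytoplasmic tail binds plakins. Itgb4 read 7083, 5459 and 6581 in cultured controls and 8551, 8885 and 9137 in cultured KO. The cultured KO arrays lay close together and clear of the controls, with means of 8857 ± 294 and 6374 ± 831 (SD, n = 3 each). Fresh signals were 1936 and 1807 in controls and 1731.5 and 1666 in KO, with a narrow gap between the groups. Cultured KO exceeded control 1.40-fold, 0.48 log2 (SE 0.10, 95% interval 0.23 to 0.74, limma adjusted p = 0.134). Over 15 other settings the adjusted p ran from 0.0401 to 0.390, below 0.05 only in 1 fit over 10 arrays. The fresh difference was -0.14 (SE 0.09, interval -0.36 to 0.08, adjusted p = 0.553).

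Itga6 encodes the partner chain α6. Its probe set 1422444_at read 36881, 32505 and 31692 in cultured controls and 38733, 36721 and 33956 in cultured KO, where the groups overlapped. Its fresh signals were 4493 and 4454 in controls and 4167 and 3665 in KO, with both KO arrays lower. The log2 differences were 0.12 in culture (SE 0.08, adjusted p = 0.523) and -0.20 in fresh cells (SE 0.09, adjusted p = 0.426), the latter -0.10 without the fresh KO replicate 2.

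The second Itga6 probe set, 1422445_at, behaved differently between conditions although the annotation names the same source sequence for both. Among fresh cells it read 6615 and 6345 in controls and 6124 and 5754 in KO, at percentiles 98.7 to 98.9 of its arrays. On the cultured arrays it read 8.14 to 8.74, at percentiles 51.1 to 52.1. The first probe set meanwhile stood at 97.6 to 98.2 in fresh and 99.3 to 99.5 in cultured cells. A reading of Itga6 in culture thus rests on 1 of its 2 probe sets.

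Itga3 encodes the α3 chain of the laminin receptor in focal contacts. Its brightest probe set, 1455158_at, read 15235, 12652 and 14172 in cultured controls and 14973, 14227 and 16429 in cultured KO, overlapping, with a log2 difference of 0.12 (SE 0.09, adjusted p = 0.563). Probe set 1460305_at read 4383, 5619 and 5926 in cultured controls and 6717, 6605 and 7816 in cultured KO, all KO arrays being higher. Its difference was 1.33-fold, 0.42 log2 (SE 0.13, adjusted p = 0.240), and that of 1421997_s_at was 0.19 (SE 0.08, adjusted p = 0.321), again without overlap. In fresh cells the Itga3 differences were -0.11, 0.11 and 0.02, each smaller than its standard error of 0.13 to 0.15.

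Itgb1 encodes the β1 chain shared by α2β1, α3β1 and most other keratinocyte integrins outside the hemidesmosome. Its brightest probe set, 1426918_at, read 22697, 21931 and 20256 in cultured controls and 24366, 21551 and 20716 in cultured KO. The groups overlapped, with a log2 difference of 0.04 (SE 0.08, interval -0.15 to 0.23, adjusted p = 0.863). The fresh values were 654 and 572 in controls and 681 and 661 in KO, with a difference of 0.13 (SE 0.12, adjusted p = 0.665). Itgb1 was the 1 gene of the 8 that was not lower in fresh KO. Of its other probe sets, 1452545_a_at differed by 0.06 in culture and 0.19 in fresh cells, and 1427771_x_at by 0.02 and 0.00. The dim 1426919_at and 1426920_x_at, at 17.7 to 28.2 and 17.8 to 23.3 in culture, differed by -0.24 and -0.14, and 1438119_at was below the array medians in both conditions.

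Itga2 encodes the α2 chain of the collagen receptor. It read 869, 1618 and 1478 in cultured controls and 1479, 1443 and 1545 in cultured KO, where the lowest control array set most of the difference of 0.22 (SE 0.24, adjusted p = 0.689). Without that array, cultured control replicate 1, the difference was -0.05. In fresh cells its signals of 43.8 to 54.5 lay below the array medians and were not tested.

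Col17a1 encodes collagen XVII, also known as BP180, whose extracellular tail reaches toward laminin-332. It read 14031 and 13675 in fresh controls and 12616 and 11707 in fresh KO, with both KO arrays below. Its fresh difference was -0.19 (SE 0.06, 95% interval -0.34 to -0.04, adjusted p = 0.333). Cultured signals were 30794, 20679.8 and 23119 in controls and 33054, 25909.6 and 28098 in KO, and the groups overlapped, with control replicate 1 among the KO values. The cultured difference was 0.24 (SE 0.17, interval -0.18 to 0.65, adjusted p = 0.543).

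Dst gave the clearest contrast between conditions, in 2 of its 4 probe sets. The gene encodes BPAG1 proteins, of which the epithelial form sits in the hemidesmosome plaque while longer forms serve nerve and muscle. Which form each probe set reads was not determined here. RefSeq lists 2 Dst starts far apart, shown because the probe sets of the gene did not move together. Capitals mark GC boxes, the only motif of the 3 found. The windows are chr1:34011345-34011644 and chr1:34160010-34160309, both on the plus strand and 148665 bases apart.
Dst start 1: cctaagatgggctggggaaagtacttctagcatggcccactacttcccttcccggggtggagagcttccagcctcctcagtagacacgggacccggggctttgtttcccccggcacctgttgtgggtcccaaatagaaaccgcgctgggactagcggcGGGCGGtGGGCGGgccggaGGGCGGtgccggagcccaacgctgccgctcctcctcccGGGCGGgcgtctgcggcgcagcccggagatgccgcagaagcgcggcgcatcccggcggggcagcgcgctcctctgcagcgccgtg
Dst start 2: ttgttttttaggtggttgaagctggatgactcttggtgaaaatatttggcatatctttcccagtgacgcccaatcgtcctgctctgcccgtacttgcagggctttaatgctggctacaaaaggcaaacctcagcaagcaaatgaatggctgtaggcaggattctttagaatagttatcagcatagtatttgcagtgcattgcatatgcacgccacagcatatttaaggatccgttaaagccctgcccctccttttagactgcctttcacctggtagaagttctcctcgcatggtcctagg
The first window held 4 GC boxes and had a GC content of 70.3%, against 46.0% and none in the second, and the median of all windows was 52.7%. Which start was used in these cells was not measured.

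Probe set 1450119_at read 7958.5, 6156 and 6937 in cultured Dst controls and 10238, 9668 and 9626 in cultured KO. In fresh cells it read 3882 and 4324 in controls and 3054 and 2359 in KO. The KO arrays were thus the highest in culture and the lowest among fresh cells, with no overlap in either. The cultured difference was 1.41-fold, 0.50 log2 (SE 0.10, 95% interval 0.25 to 0.74, adjusted p = 0.124). Over 15 other settings that adjusted p ran from 0.0464 to 0.355, below 0.05 only with array weights. The fresh difference was -0.61 (SE 0.14, interval -0.97 to -0.25, adjusted p = 0.289). Leaving out the fresh KO replicate 2 reduced the fresh value to -0.42, and leaving out the fresh KO replicate 1 gave -0.80, each with a single fresh KO array.

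Probe set 1421117_at, which the annotation ties to the same transcript, read 11863, 9075 and 10325 in cultured Dst controls and 13785, 12717 and 13045 in cultured KO. Its fresh signals were 7426 and 8271 in controls and 6272 and 6355 in KO. The groups again parted in opposite ways. The differences were 0.35 in culture (SE 0.10, adjusted p = 0.216) and -0.31 in fresh cells (SE 0.08, adjusted p = 0.289).

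**Figure D3:**
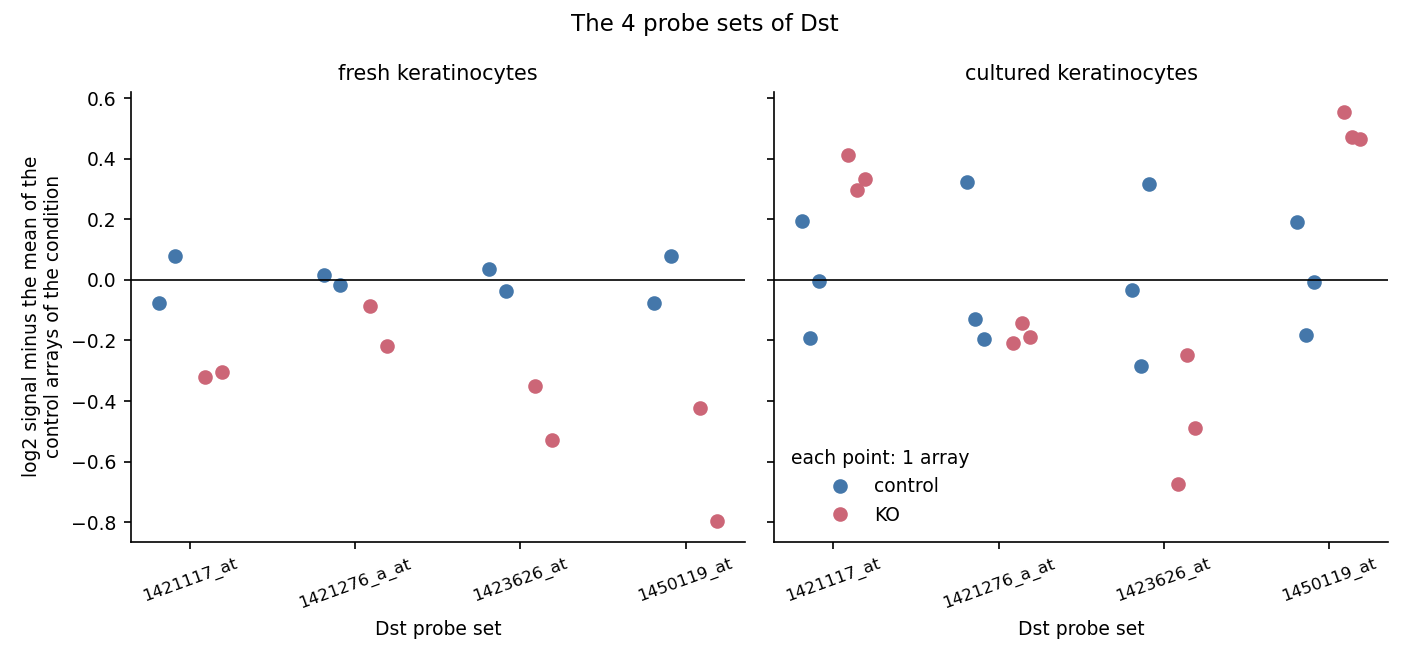
Log2 signal of the 4 Dst probe sets minus the mean of the control arrays of the same condition (y axis), with 1 point per array, fresh cells on the left and cultured cells on the right. All 4 probe sets are lower in both fresh KO arrays, while in culture the KO points of 1421117_at and 1450119_at lie above the controls and those of 1421276_a_at and 1423626_at do not.

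The third Dst probe set, 1423626_at, read 449, 378 and 572 in cultured controls and 288, 387 and 327 in cultured KO, where the groups overlapped and the lowest 2 arrays were KO. The fresh arrays gave 1006 and 956 in controls and 769 and 679 in KO. Its differences were -0.47 in culture (SE 0.19, adjusted p = 0.321) and -0.44 in fresh cells (SE 0.11, adjusted p = 0.298), thus the same sign in both. The fourth, 1421276_a_at, was dim, and differed by -0.18 and -0.15. Within each array, the ratio of 1450119_at to 1423626_at was 17.7, 16.3 and 12.1 in cultured controls and 35.6, 25.0 and 29.4 in cultured KO. That ratio was 1.95-fold higher in cultured KO, 0.97 log2, with no overlap (exact permutation test, 2-sided, p = 0.1, the smallest that 20 assignments allow). In fresh cells it was 3.86 and 4.52 in controls and 3.97 and 3.47 in KO (-0.17 log2, exact p = 0.667, smallest possible 0.333). These probe sets were paired after their values were seen. Such a ratio shows unequal change of the probe sets, not which of them changed.

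Whether the KO effect itself differed between conditions was tested per probe set, as the cultured minus the fresh log2 difference. Of the 16 member probe sets tested in both, 2 passed at an adjusted p of 0.05, against 0.879% (165 of 18773) over the table, and both belong to Dst. For 1450119_at the effects differed by 1.11 (SE 0.17, 95% interval 0.72 to 1.49, adjusted p = 0.0261). For 1421117_at they differed by 0.66 (SE 0.13, interval 0.38 to 0.94, adjusted p = 0.0479). Neither call was firm: with the smaller degrees of freedom of the fits, chosen after the data were seen, the adjusted p rose to 0.280 and 0.284, with 1 fit over 10 arrays to 0.0566 and 0.104, and without the variance trend to 0.0571 and 0.0909. Without the filter on dim probe sets the call of 1421117_at was lost as well (0.0617). The call of 1450119_at was also lost without fresh control replicate 1 (adjusted p = 0.111) or 2 (0.289), cultured control replicate 3 (0.0680) or cultured KO replicate 3 (0.0537). That of 1421117_at held only without fresh KO replicate 1 (0.0213) or cultured control replicate 1 (0.0133) among the 10 arrays left out in turn. Without the fresh KO replicate 2, the adjusted p was 0.0187 for 1450119_at and 0.0599 for 1421117_at.

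The remaining members had smaller differences or missed the threshold. Itgb4 differed by 0.62 between conditions (SE 0.14, 95% interval 0.32 to 0.92, adjusted p = 0.0629) and Lamb3 by 0.59 (SE 0.12, adjusted p = 0.0678). Itgb4 passed without cultured control replicate 1 (adjusted p = 0.0336), and both Itgb4 and Lamb3 passed with 75th percentile centring (0.0310 and 0.0412). Without fresh KO replicate 1, the fresh KO is replicate 2 alone, the array that stood apart by its markers. The fresh effects of Itgb4, Lamb3 and Lama3 were then -0.17, -0.34 and -0.30, against -0.11, -0.20 and 0.14 without replicate 2. Lama3 differed by 0.45 (adjusted p = 0.299), Col17a1 by 0.43 (adjusted p = 0.272) and Itga6 probe set 1422444_at by 0.31 (adjusted p = 0.205). Itgb1 probe set 1426918_at went the other way, at -0.10. At an unadjusted p under 0.05, 6 of the 16 differed, all with the cultured effect above the fresh, against 7.3% of all probe sets, and 0 with it below, against 10.5%. In sign alone, 9 of 16 probe sets were higher in cultured KO and lower in fresh KO, against 22.7% over the table. The differences in culture and in fresh cells use no arrays in common.

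Other genes of the same structures were read from lists by symbol, with 42 genes on the array in 4 lists. Of 6 other hemidesmosome and anchoring fibril genes, 5 were higher and 1 lower in cultured KO, 3 were higher and 3 lower in fresh KO, and none passed the adjusted test. Among them Plec, the plakin that binds β4, differed by 0.20 in culture (SE 0.17) and by -0.09 in fresh cells, and Krt14, the basal keratin, by 0.05 and 0.17. Of the other epidermal integrin subunits, 2 were higher and 3 lower in culture, and 1 higher and 2 lower in fresh cells. Itgb6, the β chain of αvβ6, had the smallest p of these in culture, at -0.43 (SE 0.22, adjusted p = 0.407).

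Of the other basement membrane genes, 10 were tested in each condition, Nid1 only in culture and Frem2 only in fresh cells. In cultured KO 6 were higher and 4 lower, and in fresh KO 4 were higher and 6 lower, none passing. Col4a2, a chain of type IV collagen, was at -0.61 in fresh cells (adjusted p = 0.300). Col18a1, the collagen from which endostatin is cut, was at 0.67 in fresh cells (adjusted p = 0.303) and 0.39 in culture (adjusted p = 0.393), and Lamb1, the β1 chain of other laminins, at 0.97 in fresh cells (adjusted p = 0.347). The adhesion plaque list had the other sign in culture, where 13 of 16 genes were lower and 3 higher in KO, with a median of -0.16, against 52.8% lower over all probe sets. In fresh cells 11 of its 16 genes were lower and 5 higher, with a median of -0.06, the same direction as most members. Its lowest p was that of Tns3, an adaptor at integrin tails, at -0.87 in culture (SE 0.17, adjusted p = 0.113) and -0.51 in fresh cells (SE 0.11, adjusted p = 0.287). Over 15 other settings the cultured adjusted p of Tns3 ran from 0.0274 to 0.354, below 0.05 only with array weights (0.0485) and in 1 fit over 10 arrays. Of the 33 listed genes tested in both conditions, 4 were higher in culture and lower in fresh cells, against 22.7% of all probe sets. Without overlap 0 of the 33 were so, against 2.06% of all probe sets, a share to which 0 is close. Members and lists were chosen with earlier results of these data known, so their contrast is a description and not an independent test.

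**Figure D4:**
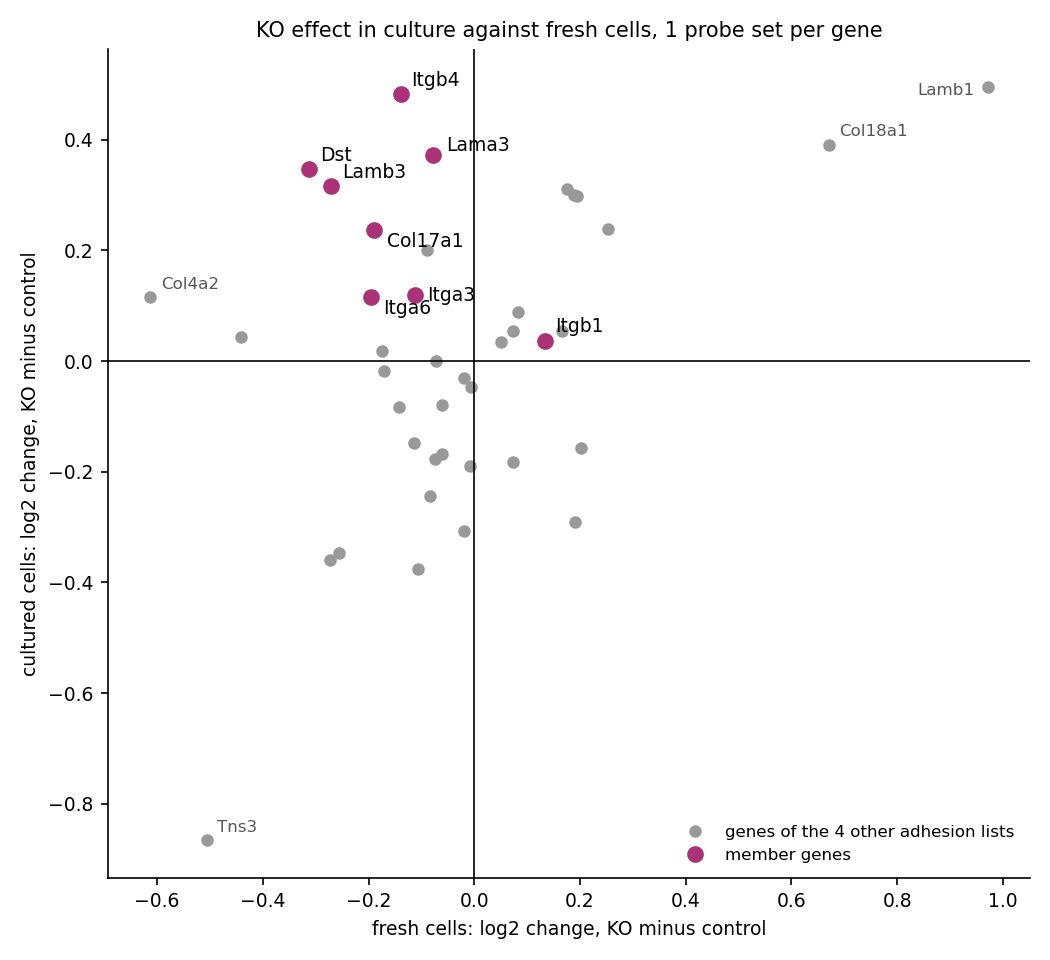
Log2 difference between KO and control in fresh cells (x axis) and in cultured cells (y axis), with 1 point per gene from its brightest probe set, for the 8 member genes and the 33 genes of the 4 other lists tested in both conditions. Above 0 in culture and below 0 in fresh cells lie 7 of the 8 member genes and 4 of the 33 others, and Itgb1 is the exception among the members. Over all probe sets tested in both conditions that share is 22.7%. Averaged over its probe sets, Itga3 was at 0.0064 in fresh cells.

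Itgb4 served to rank all genes by likeness over the 6 cultured arrays, which share a scale and the genotype contrast. The 5 genes with the highest Pearson r among 10993 were Prep, Sox7, Zfp74, Ank and Nectin3, with r from 0.998 down to 0.988. Of the members, each by its brightest probe set, Dst ranked 43 (r = 0.95), Lamb3 ranked 495 (0.81), Itga3 ranked 649 (0.78) and Lama3 ranked 758 (0.75). For Dst this was 1421117_at. The Dst probe sets 1423626_at and 1421276_a_at, at -0.47 and -0.18 log2 in cultured KO, were not ranked. Col17a1 and Itga6, the direct partners of β4, had r of 0.70 and 0.61. Itgb1 and Itga2, at 0.12 and 0.03, were near the middle of the ranking. These r are descriptions over 6 arrays.

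Between conditions, the percentile of most members was higher on the cultured arrays. On every cultured array 15 of 21 probe sets stood above all fresh arrays, against 43.1% of the table, 5 stood below, against 40.1%, and 1, Dst 1450119_at, overlapped. On cultured arrays 53.9% to 54.3% of values were below 10, against 0.10% to 0.14% on fresh arrays, so a cultured signal of about 10 ranks near the middle. The 15 thus include Lama3 1444860_at (percentiles 31.9 to 40.6 in fresh and 51.8 to 52.2 in cultured cells) and the dim Itgb1 1426919_at (2.1 to 4.3 and 58.0 to 60.3) and 1426920_x_at. Still lower cultured signals rank lower, as for Itgb1 1438119_at, at 3.64 to 3.70 and percentiles 2.3 to 2.4. Itga2 stood at 39.0 to 45.9 in fresh and 83.2 to 88.4 in cultured cells, Itgb1 probe set 1426918_at at 83.1 to 84.9 and 98.7 to 99.0, and Itga3 probe set 1460305_at at 49.2 to 53.1 and 94.2 to 96.5. Lama3 probe set 1427512_a_at moved from 93.3 to 95.2 up to 98.5 to 99.1, Lamb3 from 94.99 to 96.6 up to 98.4 to 99.0, and Itgb4 from 93.7 to 94.6 up to 95.2 to 96.9. The 5 that stood lower in culture were those of Col17a1, Dst 1421117_at and 1423626_at, Itga6 1422445_at and the dim Itgb1 1438119_at. Col17a1 stood at 99.5 to 99.6 in fresh and 98.8 to 99.3 in cultured cells, and Dst 1423626_at at 85.2 to 89.3 and 74.1 to 79.7. No test was made, since the signals of the conditions were on different scales.

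**Figure D5:**
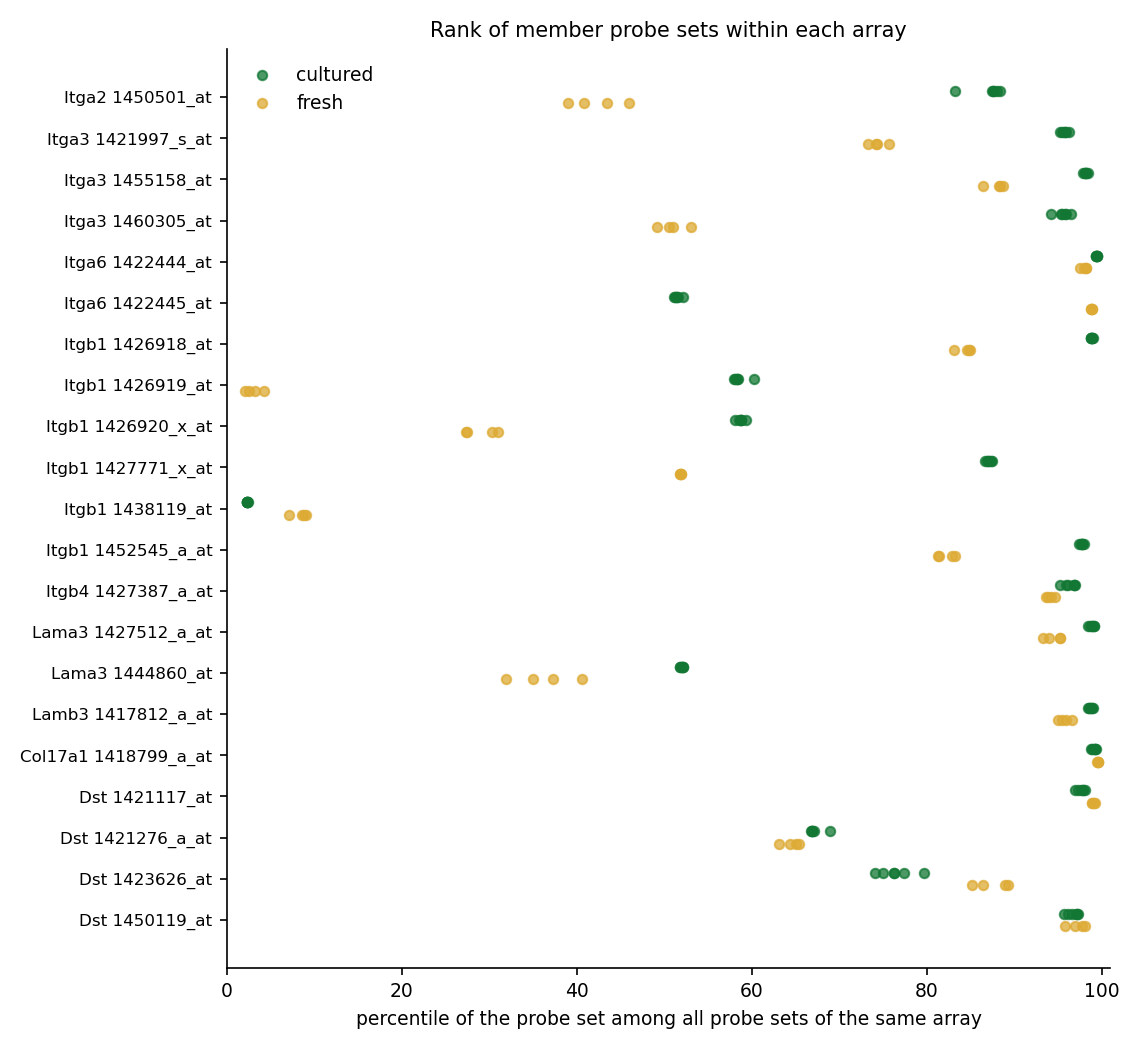
Percentile of each member probe set within its array (x axis), with 1 point for each of the 4 fresh and 6 cultured arrays. Itga2 moves from 39.0 to 45.9 in fresh cells up to 83.2 to 88.4 in culture, while Itga6 1422445_at stands at 98.7 to 98.9 in fresh and 51.1 to 52.1 in cultured cells.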

How the data were processed

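The authors deposited 1 linear intensity per probe set and array from Affymetrix whole-genome mouse 3' expression arrays. Per the submitters' processing notes, MAS5 was among the tools, with version and settings not given in the sources used here. Depth is not defined for arrays, and 2 or 3 arrays per group limit the precision.

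The log2 of each intensity was taken, adding no offset. A probe set was tested in a condition if it exceeded the array median on at least 2 of its arrays. Cultured and fresh arrays were fitted apart with limma 3.58.1 in R 4.3.3 (lmFit and trended eBayes, 2-sided), adjusting by Benjamini-Hochberg over all tested probe sets at 0.05. The difference between conditions combined both fits' standard errors with Satterthwaite degrees of freedom. On simulated data this difference test made more false calls than its threshold allows, so the smaller degrees of freedom were added as an alternative.

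Gene symbols are those of the platform annotation, and an update by Entrez identifier to RefSeq GRCm38.p6 changed 0 member symbols. Of the probe sets, 34945 had 1 symbol, 932 several and 9160 none here. The probe set with the highest mean log2 intensity over the 10 arrays stood for a gene. All member probe sets are named, and from each other list at most 4 genes, taken from those with the smallest p in a condition. Members and lists were chosen with earlier results of these data known. Alternatives changed the filter, centring, offset, trend, array weights, replicate block, joint fit, probe set summary and each array in turn.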

Additional observations from a re-analysis of the deposited data

Results flagged for a closer look

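In 2 results the KO effect differed between cultured and fresh cells by the test of the difference itself. Dst probe set 1450119_at had a KO effect of 0.50 log2 in culture and -0.61 in fresh cells, a difference of 1.11 (limma fits, adjusted p = 0.0261). Dst probe set 1421117_at had effects of 0.35 and -0.31, a difference of 0.66 (adjusted p = 0.0479). The other Dst probe set with a similar fresh effect, 1423626_at, was at -0.47 in culture and -0.44 in fresh cells, a difference of -0.03. Dst averaged over its probe sets gave a difference of 0.43 (adjusted p = 0.142). Among all probe sets, 165 of 18773 passed this test, which made too many false calls on simulated data. Neither Dst call was firm: the adjusted p were 0.280 and 0.284 with the smaller degrees of freedom, and 0.0566 and 0.104 in 1 fit over 10 arrays.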

How the results depend on the processing

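Array number and the different scales limit these results: with 2 fresh arrays per group, an adjusted p above 0.05 does not show that values were alike. The direction of the KO effect held for all 9 genes in culture and all 7 lower genes in fresh cells as deposited and with 75th percentile centring or quantile normalization. Calls in culture (62) came to 2 without the filter, 128 with 75th percentile centring, 32 with an offset of 50, 7 without the trend, 299 with array weights, 17 with the replicate block, 512 in 1 fit over 10 arrays, and 0 to 95 with 1 array left out, at 0 without cultured control replicate 3 or cultured KO replicate 2 or 3. Member calls in culture (0) were 1 with array weights and 1 in the joint fit, and the members' median of 0.24 was 0.23 to 0.33 with 1 array left out. Fresh calls (0) were 410 in the joint fit and 0 to 945 with 1 array left out, 945 without fresh KO replicate 1 and 11 without replicate 2. Fresh member calls were 0 to 1 and the median of -0.16 was -0.27 to -0.12 in these fits.

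Calls for the difference between conditions (165) came to 289 with 75th percentile centring, 108 without the trend, 320 with array weights, 289 with the replicate block, 5 in the joint fit, 0 with the smaller degrees of freedom, and 2 to 1302 with 1 array left out, 2 without cultured control replicate 3 and 1302 without fresh KO replicate 1. Member calls (2) were 1 without the filter, 4 with 75th percentile centring, 0 without the trend, 4 with the replicate block, 0 in the joint fit, 0 with the smaller degrees of freedom and 0 to 5 with 1 array left out, and the median of 0.44 was 0.36 to 0.56. Where these counts moved, the cause was not tested, except that a fit with fewer arrays has fewer samples.

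Same-numbered cultured arrays deviated from their group means with correlations of 0.32, 0.08 and 0.25, and differently numbered ones with -0.30 to 0.17. With 2 fresh arrays per group, all fresh pairs have the same size by construction (-0.05 or 0.05), so they cannot show pairing. The titles do not call equal numbers pairs, so the main fits left them unpaired, and pairing in culture was not settled. Cultured control replicate 2 correlated better with KO replicate 3 (0.17) than with its own number. The replicate block left 17 calls in culture, of which 7 were among the 62, and 0 in fresh cells, and it brought the differences of Lamb3 (adjusted p = 0.0485) and Col17a1 (0.0412) past the threshold.

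Signs turned for small effects. Dst 1421276_a_at gave a difference of 0.071 with array weights, and averaging probe sets gave Itgb1 -0.046 in culture and Itga3 0.0064 in fresh cells. With 1 array left out, the cultured effect ran from -0.055 to 0.39 for Itga2, -0.015 to 0.032 for Itga6 1422445_at, -0.032 to 0.085 for Itgb1 1426918_at, -0.015 to 0.039 for 1427771_x_at, -0.0016 to 0.10 for 1452545_a_at, -0.0034 to 0.017 for Lama3 1444860_at, -0.0027 to 0.13 for Krt14 and -0.029 to 0.57 for Itga5. The fresh effect ran from -0.10 to 0.14 for Itga3 1421997_s_at, -0.25 to 0.021 for 1455158_at, -0.0074 to 0.011 for Itgb1 1427771_x_at, -0.30 to 0.14 for Lama3 and -0.28 to 0.10 for Itgb8. The difference ran from -0.017 to 0.037 for Itgb1 1427771_x_at, -0.13 to 0.14 for Dst 1421276_a_at and -0.17 to 0.13 for Dst 1423626_at.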
